A study of Mus musculus with 18 samples.

Results

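The genes described here are 10 genes of redox defence and methionine repair in regulatory T cells (Tregs), a suppressive class of CD4 T cells that is defined by the transcription factor Foxp3. The genes were chosen by name, as the rows called Msrb3, Msrb1, Hmox1, Txn1, Txnrd1, Srxn1, Gclc, Gclm, Prdx1 and Nfe2l2, and all 10 were found among the 46078 genes of the deposited count tables. All 10 also passed the filter on low counts in every comparison.

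Tregs were sorted from male Foxp3(DTR/GFP) mice aged 10 weeks, which carry a diphtheria toxin receptor and green fluorescent protein under the control of Foxp3. In 4 groups the cells came from tissue harvested on day 7 after an injury, namely a defect of the cranial bone, a volumetric loss of the quadriceps muscle, full-thickness biopsy wounds of the skin, or an infarct of the heart made by ligation of the left coronary artery. For every injury there were 3 libraries, each a pool of 3 mice, and the control group was 6 libraries of spleen Tregs from uninjured mice of the same strain, sex and age, for which pooling is not stated. Uninjured bone, muscle, skin or heart and spleens of injured mice were not analysed here, so the effect of injury and the effect of tissue cannot be told apart. "Rose" and "fell" below mean higher or lower than in spleen.

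Cells that use oxygen form hydrogen peroxide and other oxidants, which attack cysteine and methionine residues of proteins. The thioredoxin system and glutathione, both recharged with electrons from NADPH, remove these oxidants and reverse the damage, and methionine sulfoxide reductases return oxidised methionine to methionine. Many of the genes are known targets of NRF2, a transcription factor that the adaptor protein KEAP1 holds at low levels until oxidants or electrophiles release it. NRF2 then pairs with small MAF proteins at antioxidant response elements, DNA sites that the BACH repressors also recognise.

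The stretches of 250 bases before the RefSeq transcription start (build GRCm38.p6, read in the direction of transcription) are shown for 3 genes, since these are the promoters of the member with the largest differences (Msrb3) and of 2 members that hold both kinds of site searched for. Srxn1 lies at chr2:152105274-152105523 on the plus strand, Prdx1 at chr4:116685349-116685598 on the plus strand and Msrb3 at chr10:120898972-120899221 on the minus strand. Capitals mark matches, on either strand, to the core of the antioxidant response element (TGACNNNGC) or to the AP-1 site (TGANTCA).
Msrb3: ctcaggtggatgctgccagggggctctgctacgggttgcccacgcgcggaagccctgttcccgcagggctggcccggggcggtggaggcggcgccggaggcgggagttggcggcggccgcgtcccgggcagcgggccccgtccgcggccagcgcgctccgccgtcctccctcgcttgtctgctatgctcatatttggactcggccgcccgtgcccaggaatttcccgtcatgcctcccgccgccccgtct
Srxn1: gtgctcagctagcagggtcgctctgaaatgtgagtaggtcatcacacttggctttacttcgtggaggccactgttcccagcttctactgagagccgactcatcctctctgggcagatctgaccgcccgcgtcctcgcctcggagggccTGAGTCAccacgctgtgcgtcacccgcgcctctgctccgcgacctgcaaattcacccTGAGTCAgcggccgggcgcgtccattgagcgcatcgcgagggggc
Prdx1: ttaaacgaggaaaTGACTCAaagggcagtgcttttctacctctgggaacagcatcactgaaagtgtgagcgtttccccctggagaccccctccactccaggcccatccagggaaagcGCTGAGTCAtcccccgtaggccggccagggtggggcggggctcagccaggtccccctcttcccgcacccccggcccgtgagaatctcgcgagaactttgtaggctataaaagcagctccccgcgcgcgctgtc

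Promoter windows of 300 bases, which reach 50 bases past the start, were found for 8 of the 10 genes, with 10 windows in all. The antioxidant response element core occurred in windows of 5 of these 8 genes, against 14% of all 27025 genes in the RefSeq table and 12.4% of its 32851 windows. The matches were GCTTTGTCA in Txnrd1 (in its second window of 3, first base at -92 from the start), GCTAGGTCA in Srxn1 (at 29, past the start and so outside the stretch shown), GCACCGTCA in Gclm (at -134), GCTGAGTCA in Prdx1 (at -133) and TGACTCCGC in Nfe2l2 itself (at -240). The AP-1 site occurred in Srxn1 and Prdx1, 2 times each, against 8.97% of all genes and 7.81% of all windows, and the match of Prdx1 at -131 overlapped the antioxidant response element match there. The Srxn1 match at -45 is followed by GC, so it differs from the searched core only by G in place of C after TGA. Other spellings of the core were not searched. The windows of Msrb3, Msrb1 and Txn1 held neither motif, which says only that these letters are not in those windows. A match is a description of the letters and was not tested as a binding site.

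Bone libraries held 11588253 to 22635760 counts, muscle libraries 11582403 to 13358526, skin libraries 8375212 to 11907745, heart libraries 11139361 to 12974890 and spleen libraries 5970346 to 15756884. Ribosomal, 7SK and small nuclear or nucleolar RNA genes took 5.59 to 17.8% of counts in libraries of injured tissue and 11.6 to 25.3% in spleen libraries. Columns of 7 libraries were named in a style called Endo below (all 3 of skin, heart replicate 1 and the first 3 of spleen), and those of the other 11 in a style called Tregs. For 2 bone libraries, called b and c here, the replicate number is not given by the column name. The 8 markers of Treg and T cell identity, Foxp3 among them, were all detected and summed to 6122 to 8818 CPM (counts scaled to library size, with TMM factors) in injured tissue and 4269 to 5209 CPM in spleen. They did not all move together. By the test described below, 4 of the 8 were higher than in spleen in bone, 4 in muscle and 3 in heart. In skin 4 were higher and 1 lower. Of all genes, 14.8% passed in bone, 25.5% in muscle, 20.3% in heart and 27.8% in skin. In bulk libraries, a lower level can mean fewer cells of a type or less RNA per cell, and these cannot be told apart. Levels below are CPM without adjustment. Folds come from the quasi-likelihood test of edgeR with the naming style as a term, so they need not equal the quotient of mean levels, and every adjusted p is from that test with Benjamini-Hochberg adjustment over all genes. In effect the folds of skin are set against spleen replicates 1 to 3 and the folds of bone and muscle against spleen replicates 4 to 6, and all comparisons with spleen share the spleen libraries.

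Msrb3 (ENSMUSG00000051236, chr10:120781096-120899101, minus strand, GRCm38), a methionine sulfoxide reductase of the endoplasmic reticulum that repairs the R form of oxidised methionine, showed the largest differences of the 10 genes. It had 47.3, 30.1 and 19.5 CPM in bone libraries 1, b and c, against a lowest, median and highest value of 0.517, 1.27 and 2.02 CPM in spleen. Muscle libraries had 25.2, 76.2 and 52.6 CPM and skin libraries 107, 89.9 and 109 CPM. Heart libraries had 23.8, 23.8 and 23.1 CPM. Every library of injured tissue was thus above every spleen library, where the gene had only 7 to 25 counts a library. The spread within groups was unequal, with means of 32.3 ± 14.1 CPM in bone and 51.3 ± 25.5 in muscle, and 102 ± 10.53 in skin and 23.6 ± 0.444 in heart (SD, n = 3 each), and 1.28 ± 0.535 in spleen (SD, n = 6). Msrb3 rose by 4.94 ± 0.50 on the log2 scale (SE) in bone, with an adjusted p of 7.7e-06 in edgeR's test. In muscle it rose by 5.61 ± 0.51 (adjusted p 1.29e-06), in skin by 6.00 ± 0.53 (7.51e-07) and in heart by 4.28 ± 0.34 (1.07e-06), by the same test. These are folds of 30.7, 48.7, 64.0 and 19.4 in the same order of tissues, and they rest on the low spleen counts given above. Genes in the introns of Msrb3 on the other strand, Gm15961 and Gm15910, share no exon with it and had 49 and 132 counts over all 18 libraries. The 6 fibroblast markers summed to 14.8 to 48.02 CPM in bone, 1.96 to 44.96 in muscle and 9.82 to 106.5 in skin. In heart they summed to 6.31 to 8.89 CPM and in spleen to 0 to 11.8 CPM. Tested singly with edgeR against spleen, 1 of 5 was higher in bone, 1 in muscle and 0 in skin. In heart 0 of 3 were higher. The part of fibroblasts or other cells in the levels of Msrb3 was not tested.

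Msrb1 (ENSMUSG00000075705, chr17:24736642-24742778, plus strand), the selenoprotein that makes the same repair in cytosol and nucleus, did not pass the test in any comparison with spleen. Its means were 12.8 ± 1.35 CPM in bone and 12.6 ± 2.95 in muscle, and 18.04 ± 1.92 in skin and 12.4 ± 3.00 in heart (n = 3 each), and 12.3 ± 4.82 CPM in spleen (n = 6). All 4 groups overlapped with spleen, whose libraries differed by naming style for this gene, from 13.03 to 19.9 CPM in those of the Endo style and from 6.47 to 9.78 CPM in those of the Tregs style. Adjusted for that, the log2 fold changes were 0.56 ± 0.26 in bone and 0.54 ± 0.26 in muscle, and 0.15 ± 0.26 in skin and 0.20 ± 0.28 in heart, with adjusted p of 0.165, 0.137, 0.719 and 0.67 in edgeR's test. Genes were compared by level per kilobase of exon. The length is that of all annotated exons of a gene, so this scale depends on the annotation. On it, the level of Msrb3 was above that of Msrb1 in skin (25.2 ± 2.60 against 14.3 ± 1.52 CPM per kb). In spleen it was far below that of Msrb1 (0.316 ± 0.132 against 9.79 ± 3.83 CPM per kb). Of the family's other 2 genes, Msra and Msrb2, neither passed in any comparison with spleen, and Msrb2 had 1.76 ± 0.773 CPM in bone and 1.62 ± 1.38 CPM in muscle, against 5.85 ± 1.60 CPM in spleen, with adjusted p of 0.107 and 0.0579 in edgeR's test. In muscle Msrb2 passed downward in 8 of 21 alternative analyses, with DESeq2 (0.0307), limma-voom (0.0322) and no naming style in the model (0.023) among them, and in bone in 1 of 20, with no naming style (0.0454).

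Srxn1 (ENSMUSG00000032802, chr2:152105516-152111376, plus strand) encodes sulfiredoxin, which revives peroxiredoxins that peroxide has over-oxidised. It had 26.5, 12.8 and 21.8 CPM in bone libraries 1, b and c and 15.2, 29.0 and 13.5 CPM in muscle libraries. Skin libraries had 32.1, 26.6 and 27.8 CPM and heart libraries 23.4, 23.1 and 13.9 CPM. Spleen libraries had a lowest, median and highest level of 1.66, 3.19 and 4.16 CPM, so each group of injured tissue lay wholly above spleen. Srxn1 rose by 2.59 ± 0.34 on the log2 scale in bone and 2.51 ± 0.34 in muscle, and 3.41 ± 0.38 in skin and 2.72 ± 0.31 in heart. The adjusted p values of edgeR's test were 8.19e-06, 7.19e-06, 2.46e-07 and 2.7e-05, and the folds 6.01, 5.69, 10.6 and 6.57.

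**Figure D1:**
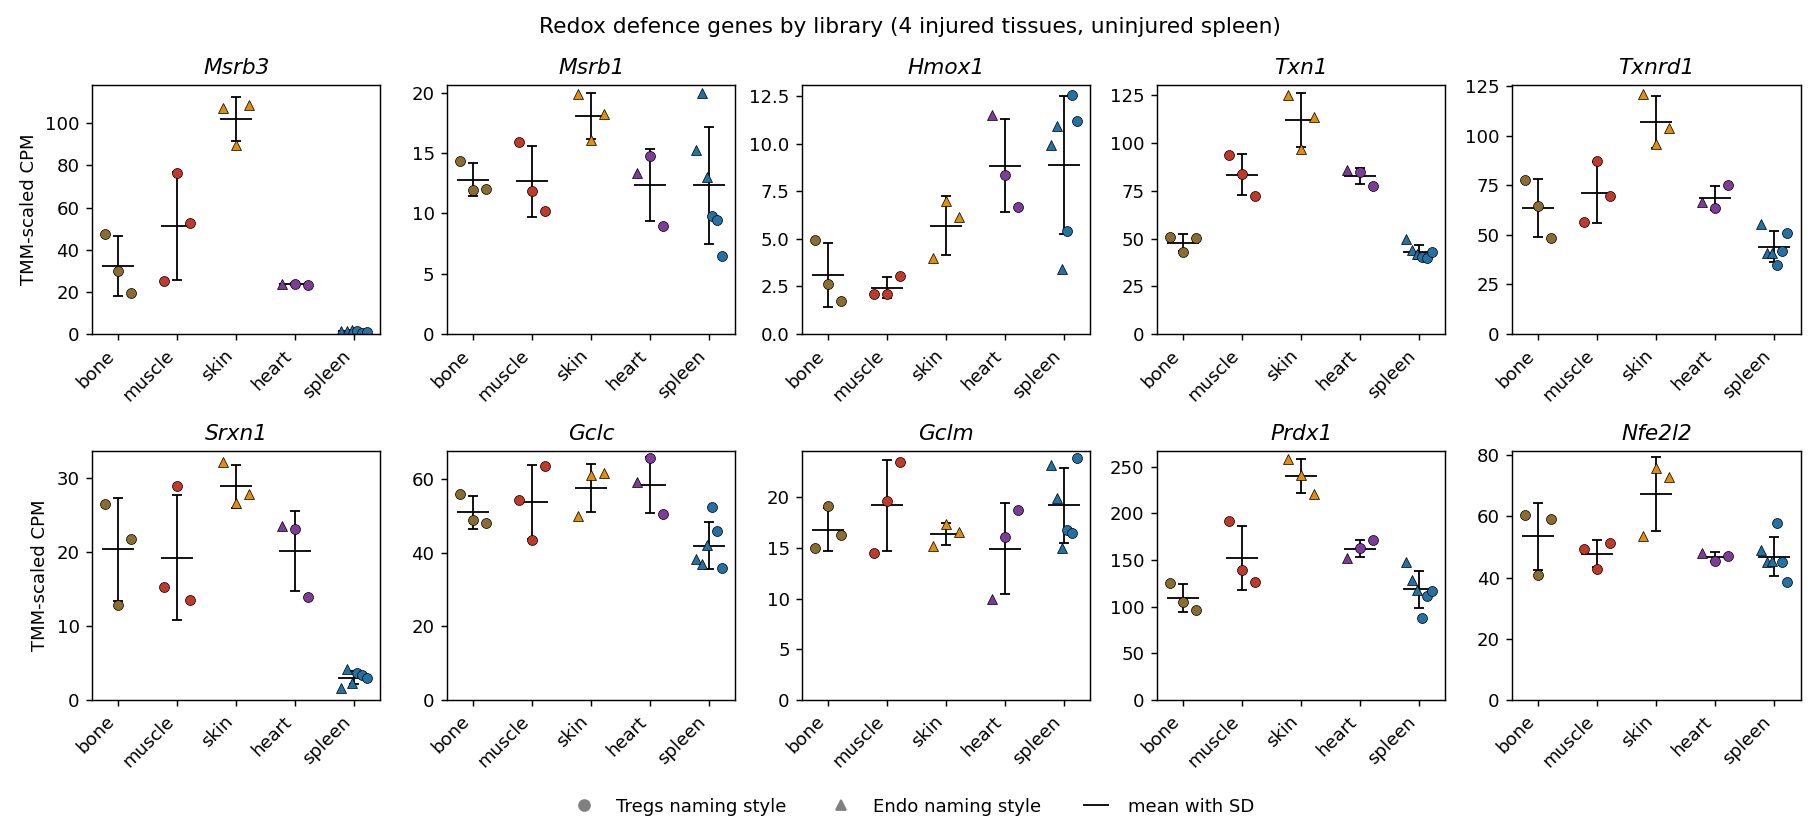
Levels of the 10 genes in each library (TMM-scaled CPM, a linear axis from 0 in each panel), for injured bone, muscle, skin and heart (3 libraries each) and uninjured spleen (6 libraries). Circles are libraries of the Tregs naming style, triangles those of the Endo style, and bars give the mean with SD. Msrb3 and Srxn1 lie above every spleen library in each injured tissue, while Hmox1 has its lowest libraries in bone and muscle.

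Txn1, Txnrd1 and Prdx1 form the cytosolic chain that passes electrons from NADPH to peroxide. Txn1 (ENSMUSG00000028367, chr4:57943373-57956411, minus strand) encodes thioredoxin, the small protein that reduces disulfides in peroxiredoxins, methionine sulfoxide reductases and other targets. It had 93.7, 84.0 and 72.3 CPM in muscle, 125, 97.0 and 113 CPM in skin and 85.7, 84.9 and 77.8 CPM in heart. Bone libraries 1, b and c had 50.6, 42.9 and 50.3 CPM, and spleen libraries had a lowest, median and highest level of 39.9, 42.3 and 49.996 CPM. Muscle, skin and heart thus lay above every spleen library, while bone overlapped with spleen. Txn1 rose by 1.00 ± 0.15 on the log2 scale in muscle, by 1.29 ± 0.15 in skin and by 0.96 ± 0.13 in heart (edgeR adjusted p of 1.58e-05, 4.6e-07 and 0.00012). In bone its log2 fold change was 0.20 ± 0.14 (edgeR adjusted p of 0.404). The processed pseudogene Txn-ps1 is 95.8% identical to Txn1 over 309 bases and had 196 counts over all libraries, against 14834 for Txn1.

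Txnrd1 (ENSMUSG00000020250, chr10:82833951-82897712, plus strand) encodes the selenoenzyme that reduces thioredoxin. Its levels were 56.6, 87.5 and 69.8 CPM in muscle, 121, 95.6 and 104 CPM in skin and 66.6, 63.5 and 75.2 CPM in heart, and all of these exceeded the highest spleen library. Spleen had a lowest, median and highest level of 34.8, 41.4 and 55.5 CPM, and bone, with 77.7, 64.4 and 48.5 CPM, overlapped with it in library c. Txnrd1 rose by 0.73 ± 0.20 on the log2 scale in muscle, by 1.21 ± 0.20 in skin and by 0.64 ± 0.16 in heart (edgeR adjusted p of 0.008, 6.4e-05 and 0.0135). The call in muscle was lost without muscle replicate 2 (adjusted p 0.067) or spleen replicate 4 (0.0505). In bone the log2 fold change was 0.56 ± 0.20 with an edgeR adjusted p of 0.0563, which passed the threshold in 8 of 20 alternative analyses.

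Prdx1 (ENSMUSG00000028691, chr4:116685544-116700822, plus strand) encodes a peroxiredoxin, an abundant enzyme that reduces hydrogen peroxide with electrons from thioredoxin. It had 192, 139 and 126 CPM in muscle, 258, 241 and 221 CPM in skin, and 152, 163 and 171 CPM in heart. Bone libraries 1, b and c had 126, 106 and 96.0 CPM, and spleen libraries had a lowest, median and highest level of 87.8, 118 and 148 CPM. Skin and heart lay above spleen, and bone and muscle overlapped with it. Prdx1 rose by 0.85 ± 0.16 on the log2 scale in skin (edgeR adjusted p of 0.000267), where the call held in all 21 alternatives. It also passed in muscle, with 0.51 ± 0.16 (0.0202), and in heart, with 0.49 ± 0.15 (0.0342), but not in bone, with 0.03 ± 0.16 (0.943). The muscle call was lost without muscle replicate 1 (0.146) or spleen replicate 4 (0.108), and the heart call without heart replicate 2 (0.0993) or 3 (0.0844) or spleen replicate 3 (0.0504), 4 (0.0786) or 5 (0.0641). Both of these calls were also lost with no naming style in the model (0.1 in muscle and 0.0572 in heart), and the heart call with upper quartile scaling (0.0773). Reads of Prdx1 could be split with the processed pseudogenes Gm21399 (98.3% identical over 597 bases) and Gm7204 (97.5%), which together had 15.9% as many counts as Prdx1.

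Gclc and Gclm encode the catalytic and modifier subunits of glutamate-cysteine ligase, which makes the first bond of glutathione. Gclc (ENSMUSG00000032350, chr9:77754535-77794485, plus strand) averaged 50.9 ± 4.44 CPM in bone and 53.7 ± 10.1 in muscle, and 57.6 ± 6.54 in skin and 58.5 ± 7.64 in heart (n = 3 each), and 41.9 ± 6.31 CPM in spleen (n = 6). All 4 groups overlapped with spleen. Gclc passed in skin, with a log2 fold change of 0.53 ± 0.18 and an edgeR adjusted p of 0.0255, but lost that call without skin replicate 2 (0.0955) or 3 (0.0608), without spleen replicate 1 (0.0523) or 2 (0.064), with upper quartile scaling (0.0683) and in limma-voom (0.089). In bone, muscle and heart its log2 fold changes were 0.17 ± 0.17, 0.24 ± 0.17 and 0.46 ± 0.16 (edgeR adjusted p of 0.592, 0.328 and 0.06). Gclm (ENSMUSG00000028124, chr3:122245557-122270732, plus strand) averaged 16.8 ± 2.14 CPM in bone and 19.2 ± 4.48 in muscle, and 16.4 ± 1.09 in skin and 14.9 ± 4.49 in heart, and 19.2 ± 3.70 CPM in spleen. It passed in no comparison with spleen, with adjusted p of 0.647, 0.989, 0.471 and 0.259 in edgeR's test, and its groups overlapped with spleen in all 4. Exons of Gclm overlap those of Gm17494 on the other strand and of the pseudogene Gm6061 on the same strand. How strand was used in counting is not given in the sources used here.

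Hmox1 (ENSMUSG00000005413, chr8:75093621-75100589, plus strand) encodes heme oxygenase-1, the inducible enzyme that breaks down heme. It was the only member whose calls went downward against spleen. It had 4.95, 2.63 and 1.72 CPM in bone libraries 1, b and c and 2.10, 2.11 and 3.06 CPM in muscle, against a lowest, median and highest level of 3.42, 10.4 and 12.5 CPM in spleen. Muscle lay wholly below spleen, while bone library 1 was above the lowest spleen library, replicate 3. Hmox1 fell by 2.02 ± 0.49 on the log2 scale in muscle (edgeR adjusted p of 0.00388) and by 1.65 ± 0.48 in bone (0.021). The bone call was lost without bone library b (adjusted p 0.0815) or c (0.0901) or without spleen replicate 5 (0.0941) or 6 (0.0642). Skin libraries had 3.97, 7.00 and 6.12 CPM and heart libraries 11.5, 8.34 and 6.69 CPM, both overlapping with spleen. Their log2 fold changes were -0.52 ± 0.48 (edgeR adjusted p of 0.465) and -0.02 ± 0.38 (0.98). Since macrophages and red cell precursors handle heme, their markers are given beside this gene. The 10 macrophage and monocyte markers summed to 21.97 to 30.4 CPM in bone, with 3 of them at 0 in every library, 12.9 to 21.7 in muscle and 9.88 to 25.2 in skin and 9.52 to 77.7 in heart, and 23.9 to 41.0 CPM in spleen. The 7 erythroid markers summed to 0.291 to 6.80 CPM in bone and at most 0.331 in muscle, and at most 0.383 in skin and at most 9.75 in heart, and 4.55 to 35.6 CPM in spleen. Tested singly with edgeR, 1 macrophage marker was higher and 3 lower in bone, 1 and 4 in muscle, and 1 and 2 in skin, of 8 tested. In heart 1 of 9 was higher and 0 lower. Their median log2 fold changes were -1.92, -2.55, -2.09 and -0.60 in bone, muscle, skin and heart. Of 5 erythroid markers tested, 3, 5, 4 and 3 were lower in that order, and 0 higher. Of all genes, 14.8%, 25.5%, 27.8% and 20.3% passed in these comparisons. The part of either cell type in the levels of Hmox1 was not tested.

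Nfe2l2 (ENSMUSG00000015839, chr2:75675513-75704641, minus strand) encodes NRF2 itself, whose activity is set mainly by protein stability rather than by its transcript. It averaged 53.5 ± 10.9 CPM in bone and 47.8 ± 4.32 in muscle, and 67.3 ± 12.01 in skin and 46.8 ± 1.42 in heart (n = 3 each), and 46.8 ± 6.38 CPM in spleen (n = 6). Every group overlapped with spleen. Skin libraries had 53.6, 75.7 and 72.7 CPM, against a lowest, median and highest level of 38.7, 45.3 and 57.9 CPM in spleen, and the skin comparison passed with 0.51 ± 0.19 on the log2 scale (edgeR adjusted p of 0.0424). That call was lost without skin replicate 2 (0.177) or 3 (0.095), without spleen replicate 1 (0.0506), 2 (0.0859) or 3 (0.0818), with upper quartile scaling (0.103) and in limma-voom (0.126). In bone, muscle and heart the log2 fold changes were 0.15 ± 0.18, -0.01 ± 0.18 and -0.01 ± 0.15 (edgeR adjusted p of 0.652, 0.988 and 0.976).

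Counted over the 10 genes, 2 were higher and 1 lower in bone than in spleen, where 14.8% of all 15617 genes tested passed (8.48% higher and 6.32% lower). In muscle 5 were higher and 1 lower, where 25.5% of genes passed (14.2% higher and 11.3% lower), and in skin 7 were higher and 0 lower, where 27.8% passed (15% higher and 12.8% lower). In heart 5 were higher and 0 lower, where 20.3% of 15025 genes passed. In that comparison 11.8% were higher and 8.46% lower, that is 1772 and 1271 genes, while upper quartile scaling gave 1506 higher and 1643 lower genes. That scaling also turned the balance in muscle, with 1982 higher and 2044 lower genes in place of 2222 and 1762, and in skin, with 2026 and 2468 in place of 2347 and 1995. Groups that did not overlap were found for 2 members in bone (both higher), 4 higher and 1 lower in muscle, 5 higher in skin and 5 higher in heart. Over all genes 12.2% lay wholly higher and 8.49% wholly lower in bone, 14.9% and 11.7% in muscle, 18.8% and 15.1% in skin, and 13.2% and 10% in heart. The median log2 fold change of the 10 genes was 0.18 in bone and 0.52 in muscle, and 0.69 in skin and 0.47 in heart, against 0.01, -0.01, -0.07 and -0.03 over all genes tested. Upper quartile scaling moved the median of all genes in skin to -0.17. The 10 genes were chosen with earlier results of these data known, so these counts describe them and do not show that they stand apart from other genes.

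**Figure D2:**
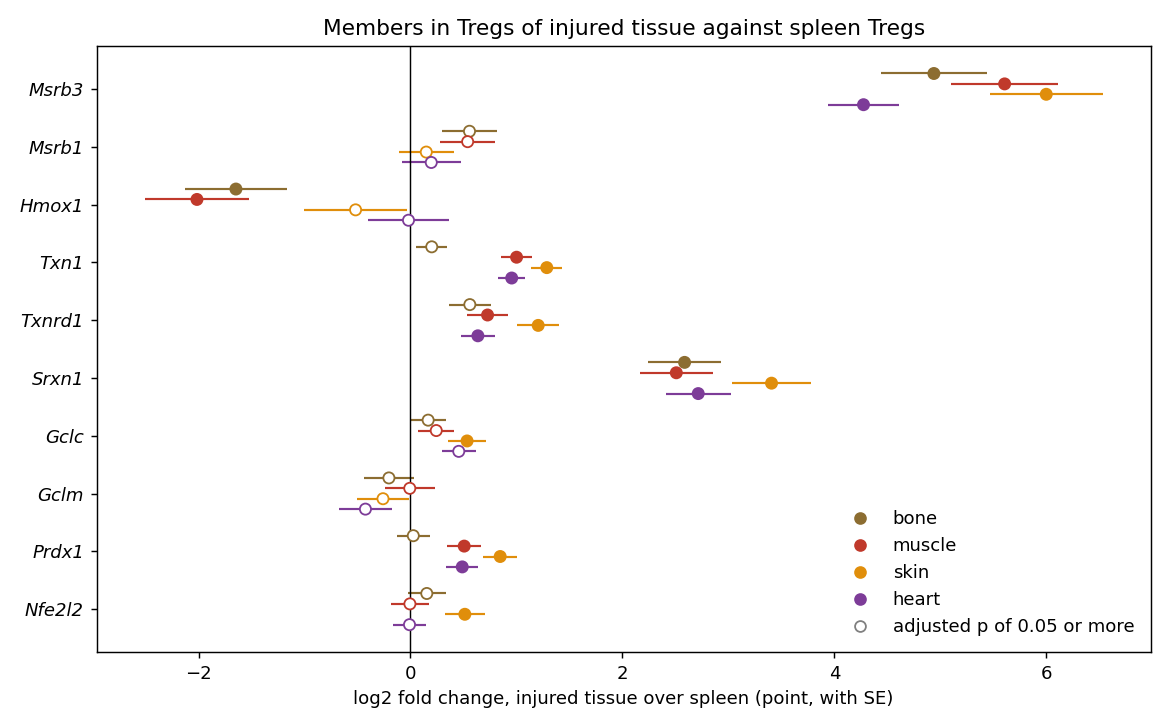
Log2 fold change of each gene in Tregs of injured bone, muscle, skin and heart over spleen Tregs (points, with SE as bars, from edgeR's quasi-likelihood test). Filled points have an adjusted p under 0.05. Msrb3 stands between 4.28 and 6.00 and Srxn1 between 2.51 and 3.41, Hmox1 is below 0 in bone and muscle, and Msrb1 and Gclm have open points only.

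By level per kilobase of exon, the order of the genes differed between injured tissue and spleen mainly through Msrb3 and Srxn1. Txn1 and Prdx1 stood highest everywhere, at 106 ± 13.5 and 78.9 ± 6.09 CPM per kb in skin, 78.8 ± 4.17 and 53.3 ± 3.06 in heart, 79.3 ± 10.2 and 50.04 ± 11.4 in muscle and 45.6 ± 4.14 and 35.8 ± 4.95 in bone, and at 41.0 ± 3.50 and 38.9 ± 6.48 in spleen. Their spreads overlapped in spleen, so the order of these 2 is not fixed there. Their order also depends on the exon length used. In CPM, not divided by length, Prdx1 was above Txn1, at 240 ± 18.5 against 112 ± 14.2 in skin. In spleen the values were 119 ± 19.7 against 43.1 ± 3.68 CPM, and the means in bone, muscle and heart had the same order. Per kilobase, Msrb3 was the lowest of the 10 genes in spleen and the third highest in skin, ahead of Nfe2l2 at 17.7 ± 3.16 CPM per kb. Gclc, Txnrd1 and Msrb1 followed in skin at 15.3 ± 1.74, 15.1 ± 1.85 and 14.3 ± 1.52 CPM per kb and did not differ beyond their spread. Srxn1 stood at 10.2 ± 1.02 CPM per kb in skin, against 1.07 ± 0.324 in spleen, and Gclm (2.61 ± 0.173 in skin, 3.06 ± 0.588 in spleen) and Hmox1 (3.25 ± 0.891 in skin, 5.08 ± 2.07 in spleen) kept low levels. In heart, Srxn1, Msrb3 and Hmox1 lay close together at 7.14 ± 1.93, 5.82 ± 0.11 and 5.05 ± 1.39 CPM per kb.

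The injured tissues were compared with each other in 60 tests, 10 genes in each of 6 pairs. Txn1 was higher in muscle than in bone, by 0.80 ± 0.15 on the log2 scale (edgeR adjusted p of 0.00321), in skin than in bone, by 1.11 ± 0.19 (0.000848), and in heart than in bone, by 0.75 ± 0.15 (0.00449). Prdx1 was higher in skin than in bone, by 0.96 ± 0.22 (0.00823), and Msrb3 was lower in heart than in skin, with a log2 fold change of -1.92 ± 0.47 (0.0346). The Msrb3 call was lost whichever heart or skin library was left out, with adjusted p between 0.0519 and 0.418, highest without heart replicate 1. The first 4 calls held in every alternative. Over all genes, 3.1% passed between muscle and bone (1.31% higher and 1.78% lower in muscle) and 8.16% between skin and bone (4.47% higher and 3.69% lower in skin). Between heart and bone 6.68% passed (4.02% higher and 2.66% lower in heart), and between heart and skin 2.38% (1.49% higher and 0.892% lower in heart). Comparisons of skin with bone or muscle also rest on the difference between naming styles within spleen and within heart, since all skin libraries had the Endo style.

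No member passed between skin and muscle in edgeR's test, where 0.722% of all genes did (0.276% higher and 0.446% lower in skin), or between heart and muscle, where 0.452% did (0.358% higher and 0.0942% lower in heart). At an unadjusted p under 0.05, 3 members differed between skin and muscle (Txnrd1, Prdx1 and Nfe2l2, all higher in skin), where 11.7% of all genes did, and 2 between heart and muscle (Hmox1, higher in heart, and Msrb3, lower in heart), where 9.74% did. DESeq2 called 0 members between skin and muscle, with 2.35% of all genes called, and 1, Hmox1, between heart and muscle, with 1.33% called. Hmox1 had 8.84 ± 2.44 CPM in heart and 2.43 ± 0.551 CPM in muscle, groups that did not overlap (6.66% of all genes lay wholly higher and 5.77% wholly lower in heart), with a log2 fold change of 1.85 ± 0.50 and an edgeR adjusted p of 0.124. Against bone, with 3.10 ± 1.66 CPM, its log2 fold change in heart was 1.49 ± 0.49 (edgeR adjusted p of 0.0679). Macrophage markers, given above, reached their highest sum in 1 of the heart libraries, and their part in this was not tested. Msrb3 lay wholly lower in heart than in muscle, with -1.21 ± 0.37 on the log2 scale and an edgeR adjusted p of 0.22. Seen over the 4 injured tissues, Msrb3 was in the order skin, muscle, bone and heart, where skin did not overlap with muscle, but muscle overlapped with bone and bone with heart.

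By level alone, 7 of the 10 genes lay wholly higher in skin than in muscle, where 14.5% of all genes did, and 7 lay wholly lower in heart than in skin, where 13.8% did. These levels are not adjusted for naming style, which all skin libraries and 1 heart library shared, and Msrb1, among the 7 in skin against muscle, had a log2 fold change of -0.17 in the model with that term. In skin 6 of the genes lay wholly higher than in bone (21.7% of all genes), in heart 3 did (13.2%) and in muscle 2 did (12.3%).

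Across the 18 libraries, log2 CPM of Msrb3 and Srxn1 had a Pearson r of 0.94, and within groups (deviations from each group's mean) an r of 0.14. For Msrb3 and Txnrd1 these values were 0.87 and 0.44, and over the 12 libraries of injured tissue r was 0.90. Txn1 and Prdx1 had 0.88 over all libraries and 0.61 within groups. The libraries share the contrast between injured tissue and spleen, so the values over all libraries describe that contrast again. By the same measure, the genes most like Msrb3 among 8386 genes were Gzmb (r of 0.99), Myadm (0.98) and Ccr2 (0.98), and those most like Srxn1 were Gas2l3 (0.97), Rab4a (0.96) and Havcr2 (0.96). For Hmox1 the nearest were Mrpl52 (0.81), Ecm1 (0.78) and Rnf139 (0.76).

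The 6 gene lists of the same chemistry held 59 genes besides the 10 members, of which 57 could be tested in bone, muscle and skin and 56 in heart. Among these, 6 were higher and 3 lower in bone, 11 and 4 in muscle, 14 and 6 in skin, and 11 and 5 in heart, and their median log2 fold changes were 0.09, 0.18, 0.21 and 0.17. Either way, 15.8% of them passed in bone and 26.3% in muscle, close to the 14.8% and 25.5% of all genes that did, and 35.1% passed in skin and 28.6% in heart, against 27.8% and 20.3% of all genes. The counts of single lists below stand beside the same shares of all genes, and each rests on few genes. Of the 12 thioredoxin and glutaredoxin genes, members included, 1 rose in bone, 4 rose and 2 fell in muscle, 5 rose and 2 fell in skin, and 3 rose and 1 fell in heart. Glrx encodes glutaredoxin, which uses glutathione to free bound cysteines. Its levels were 97.4 ± 25.4 CPM in bone and 186 ± 35.1 in muscle, and 241 ± 30.3 in skin and 176 ± 21.5 in heart, and 43.1 ± 12.5 CPM in spleen. It rose by 1.49 ± 0.20, 2.42 ± 0.20, 2.19 ± 0.20 and 2.13 ± 0.19 on the log2 scale in the same order (edgeR adjusted p of 1.11e-05, 8.81e-09, 2.46e-08 and 3.74e-06). Txnip, which binds and inhibits thioredoxin, had 615 ± 35.2 CPM in bone and 285 ± 69.0 in muscle, and 219 ± 25.6 in skin and 211 ± 17.4 in heart, and 583 ± 203 CPM in spleen. It fell by 1.67 ± 0.25 on the log2 scale in skin and by 1.38 ± 0.27 in heart (edgeR adjusted p of 7.25e-05 and 0.00268). Without spleen replicates 1 and 2, which in effect sets skin against spleen replicate 3 alone, the log2 fold change in skin was -1.04. Its fall of -0.76 in muscle (0.0322) was lost without muscle replicate 1 or 3 or spleen replicate 4 or 5, with adjusted p of 0.0742 to 0.165. Txnrd3, a thioredoxin reductase best known from testis, passed downward in muscle and skin, at 0.306 ± 0.268 and 0.711 ± 0.175 CPM, against 3.53 ± 1.74 CPM in spleen. Given its low levels in muscle and skin, it may have passed the filter on low counts only through groups where it is high. Its skin call was lost without skin replicate 2 or 3 or spleen replicate 1 or 2 (adjusted p 0.0501 to 0.0807), and without muscle replicate 2 its log2 fold change in muscle was -2.42 in place of -3.01.

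Of 10 peroxiredoxin, sulfiredoxin, superoxide dismutase and catalase genes, 1 rose and 1 fell in bone, 3 rose in muscle, and 4 each rose in skin and in heart. Besides Prdx1 and Srxn1, Prdx4, a peroxiredoxin of the endoplasmic reticulum, rose by 1.26 ± 0.29 on the log2 scale in skin (edgeR adjusted p of 0.00191), with 41.1 ± 11.3 CPM in skin and 14.7 ± 4.19 CPM in spleen. The gene that fell in bone was Sod1, the cytosolic superoxide dismutase, with -0.57 ± 0.17 (0.0267), which was lost without bone library b or c or spleen replicate 4, 5 or 6 (0.0602 to 0.12). Of 14 glutathione genes tested, 1 rose in bone, 2 rose in muscle, 5 rose in skin, and 4 rose and 1 fell in heart. Gsr, the reductase that recharges glutathione, passed in all 4 tissues, with log2 fold changes of 0.55 ± 0.17, 0.60 ± 0.17, 0.71 ± 0.18 and 0.65 ± 0.16 in bone, muscle, skin and heart (edgeR adjusted p of 0.032, 0.0119, 0.00371 and 0.0092). Its bone call was lost in 6 of 20 alternatives, among them without any 1 of the bone libraries or without spleen replicate 4 or 6 (0.0531 to 0.125). The muscle call was lost without muscle replicate 3 (0.0934) or spleen replicate 4 (0.0636). Slc3a2, a subunit of the cystine and large amino acid transporters, rose by 1.05 ± 0.14 in muscle, by 1.57 ± 0.15 in skin and by 1.34 ± 0.21 in heart (edgeR adjusted p of 6.77e-06, 1.69e-08 and 0.000446). Its levels were 192 ± 15.3, 236 ± 8.28 and 217 ± 78.7 CPM, against 85.1 ± 14.6 CPM in spleen. Gpx7, a glutathione peroxidase family member of the endoplasmic reticulum, had 3.66 ± 0.961 CPM in skin and 3.43 ± 2.21 CPM in heart, against 0.639 ± 0.299 CPM in spleen. It is counted among the glutathione genes that rose in skin and heart. Given its low spleen level, it may have passed the filter on low counts only through groups where it is high. Its calls are therefore not read as support beyond its levels. Its call in skin was lost without any of skin replicates 1 to 3 or spleen replicates 1 to 3 (adjusted p 0.051 to 0.147), and in heart without replicate 1 (0.0617) or 3 (0.148). The gene that fell in heart was Ggct, a cyclotransferase of glutathione breakdown, with -1.18 ± 0.40 (0.0493), a call lost in 12 of 21 alternatives, among them without heart replicate 1 or 3 or spleen replicate 1, 2, 3, 4 or 6 (0.0599 to 0.176).

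Among the 10 NRF2 regulators, 1 rose and 1 fell in bone, 2 rose and 1 fell in muscle, 3 rose and 3 fell in skin, and 2 rose and 3 fell in heart. Bach2, a repressor of the BACH family that also restrains effector genes in T cells, had the lowest folds of the list. Its levels were 50.6 ± 1.24 CPM in bone and 12.9 ± 5.16 in muscle, and 4.94 ± 2.97 in skin and 35.3 ± 7.80 in heart, and 142 ± 13.2 CPM in spleen. It fell in all 4, with log2 fold changes of -1.54 ± 0.27, -3.51 ± 0.30, -4.85 ± 0.33 and -2.01 ± 0.17 in that order (edgeR adjusted p of 0.000648, 1.43e-07, 6.51e-09 and 1.45e-06), and without skin replicate 2 the value in skin was -5.46. Mafg, a small MAF partner of NRF2, rose by 0.93 ± 0.22, 0.95 ± 0.22, 1.06 ± 0.23 and 1.07 ± 0.23 (edgeR adjusted p of 0.00459, 0.00256, 0.00099 and 0.00532), a call lost in heart without heart replicate 1 (0.109). Sqstm1, the p62 adaptor that can draw KEAP1 away from NRF2, rose by 0.78 ± 0.16 in muscle, by 1.16 ± 0.16 in skin and by 0.75 ± 0.15 in heart (edgeR adjusted p of 0.00074, 7.42e-06 and 0.00241).

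Of the 17 other NRF2 targets, Hmox1 included, 3 rose and 2 fell in bone, 4 and 2 in muscle, and 3 and 1 in skin, while of 16 tested in heart 2 rose and 0 fell. Fth1, the heavy chain of ferritin that stores iron, rose by 0.71 ± 0.13, 0.93 ± 0.13, 1.39 ± 0.13 and 1.07 ± 0.14 on the log2 scale in bone, muscle, skin and heart (edgeR adjusted p of 0.000319, 8.03e-06, 1.74e-08 and 0.000113). Its levels were 869 ± 26.5, 1008 ± 74.7, 1320 ± 67.3 and 1075 ± 137 CPM, against 509 ± 46.9 CPM in spleen. Osgin1, an oxidative stress-induced growth inhibitor, fell in bone, muscle and skin, with log2 fold changes of -1.49 ± 0.37, -1.90 ± 0.38 and -2.91 ± 0.42 (edgeR adjusted p of 0.00688, 0.000595 and 1.1e-05), with -3.58 in skin without skin replicate 2. Me1, malic enzyme, a source of NADPH, is counted among the genes that rose in bone, muscle and skin, but it passed the filter on low counts only through the groups where it is high and was not tested in heart, so only its levels are given. They were 0.361 ± 0.0377 CPM in bone and 1.84 ± 0.593 in muscle, and 1.75 ± 0.662 in skin and 1.05 ± 0.568 in heart, while spleen libraries had 0 or 1 count each. Nqo1, a quinone reductase and often-used NRF2 target, had 1.55 ± 0.29 CPM in bone and 1.76 ± 1.30 in muscle, and 2.20 ± 0.64 in skin and 0.843 ± 0.769 in heart, and 0.854 ± 0.543 CPM in spleen, and passed in no comparison (edgeR adjusted p of 0.62, 0.46, 0.381 and 0.976).

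**Figure D3:**
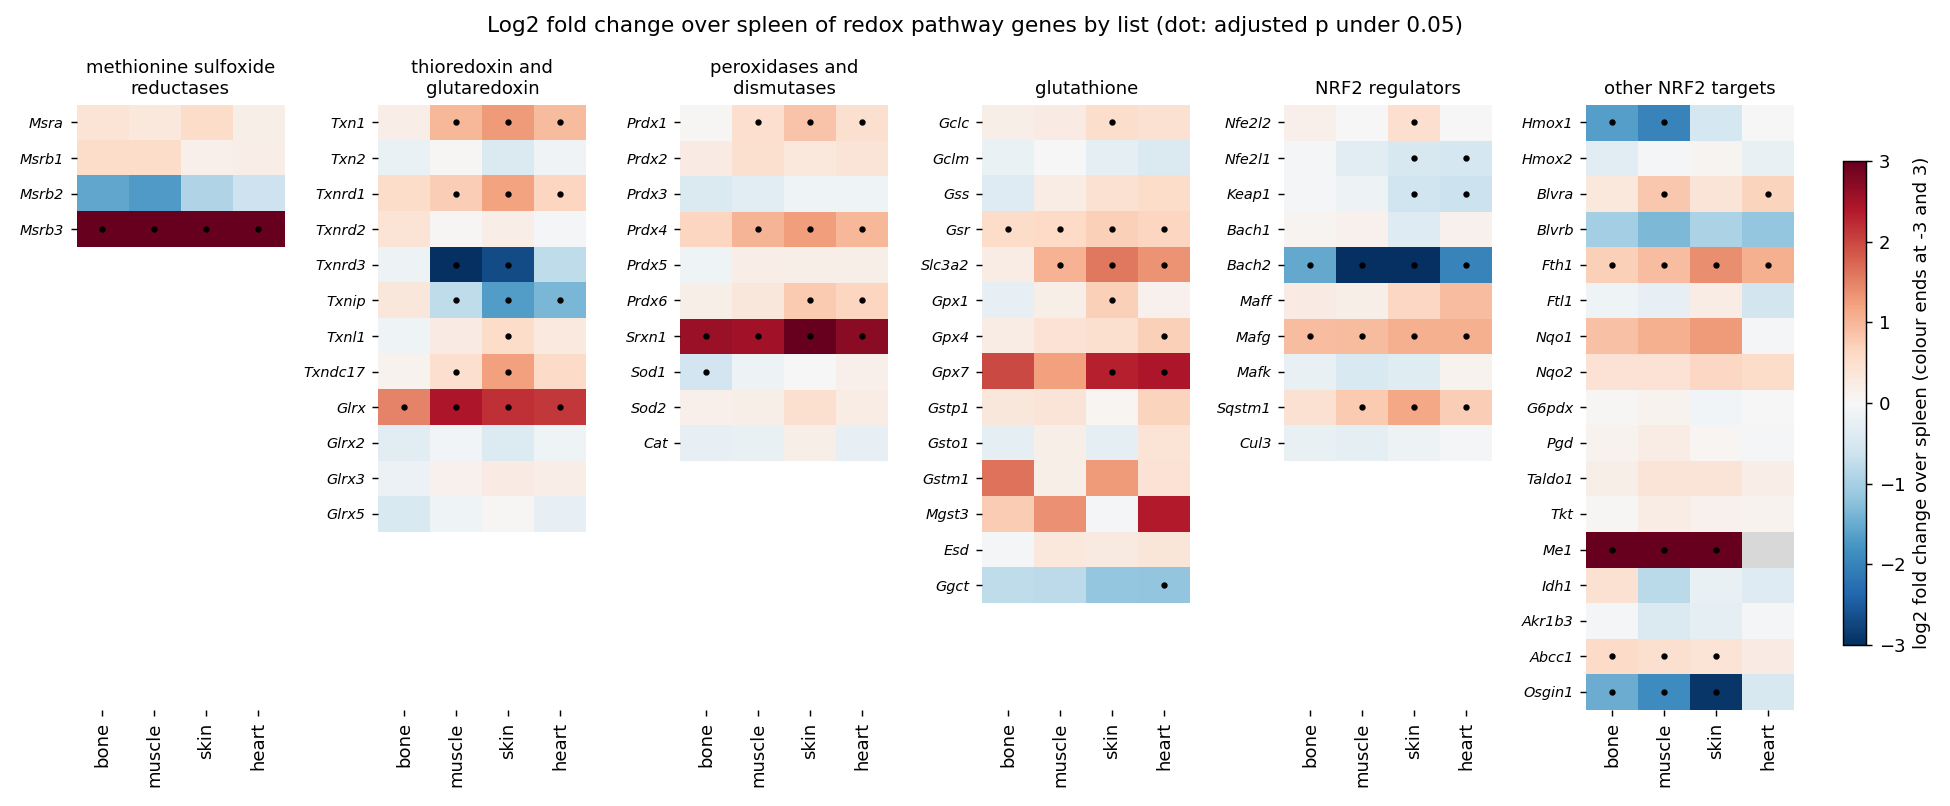
Log2 fold change of tested genes of the 6 lists (rows, members included) in bone, muscle, skin and heart Tregs over spleen Tregs (columns). Colour runs from -3 to 3 on the log2 scale and larger changes take the end colour, dots mark an adjusted p under 0.05 in edgeR's quasi-likelihood test, and grey is not tested. Msrb3, Glrx, Srxn1, Gsr, Mafg and Fth1 carry dots in all 4 columns on the high side, as does Bach2 on the low side, while many genes of the lists carry none.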

How the data were processed

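Bulk RNA sequencing of sorted Tregs gave 18 libraries. Per the labels' protocols, RNA was purified with the RNeasy Plus Micro Kit and libraries were made with the Ovation Solo kit. The authors deposited 2 tables of raw counts per gene, whose 6 spleen columns are identical. The submitters' processing notes name STAR, featureCounts, limma and GRCm38 without versions. Which annotation was counted, how strand was set and what was done with multi-mapping reads is not given in the sources used. No libraries were merged or left out, and p-values measure the spread between libraries, which for spleen may be technical.

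Low genes were removed by filterByExpr, libraries were scaled by TMM, and groups were compared by edgeR (version 4.0.16, with R 4.3.3) through its robust quasi-likelihood test, adjusting p-values by Benjamini-Hochberg over all genes tested (FDR 0.05). Terms of the model were the group and the column's naming style. The model was fitted to 15 libraries for bone, muscle and skin against spleen, 9 for heart against spleen and all 18 for pairs of injured tissues. Standard errors of log2 fold changes came from the F statistic. Positions, exon lengths (all annotated exons of a gene, overlaps counted once) and copies are from GENCODE M21. Of the other pathway genes, those with the 3 largest log2 fold changes that passed were named in each direction, with further genes of each list by their values. For 3 members the 3 genes of highest correlation were named, among genes whose log2 CPM averaged 3 or more. Alternatives used other scaling, filters, models, tools (DESeq2 1.42.0, limma-voom 3.58.1) and fewer libraries, and the procedure was tested on simulated data. The genes and lists were chosen with earlier results of these data known.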

Additional observations from a re-analysis of the deposited data

Results flagged for a closer look

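Between injured tissues, 5 of 60 tests of the 10 genes found a difference in the response relative to spleen, by a direct contrast in edgeR's fit of all 18 libraries. Txn1 differed between muscle and bone by a log2 fold change of 0.80 (adjusted p 0.00321), with 93.7, 84.0 and 72.3 CPM in muscle against 50.6, 42.9 and 50.3 CPM in bone, higher in 3 of 3 libraries, where 12.3% of all genes lay wholly higher in muscle. Txn1 also differed between skin and bone by 1.11 (0.000848) and between heart and bone by 0.75 (0.00449), again with every library of skin and heart above every bone library, where 21.7% of all genes lay wholly higher in skin and 13.2% in heart. Prdx1 differed between skin and bone by 0.96 (0.00823), with 240 ± 18.5 CPM in skin and 109 ± 15.1 CPM in bone (SD, n = 3 each). Msrb3 differed between heart and skin by -1.92 (0.0346), with 23.6 ± 0.444 CPM in heart and 102 ± 10.53 CPM in skin. The values of skin are of libraries of the Endo naming style and those of bone of the Tregs style, and the part of that style in these differences was not tested beyond its term in the model. In the 6 spleen libraries no gene of the 10 had a library far from the others, where chance would flag about 1 group in 20.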

How the results depend on the processing

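Of the 40 results of the 10 genes against spleen, 21 passed in edgeR's test. Under all alternatives 14 of these calls held, while 7 were lost in some and 0 turned direction. Of the 19 that did not pass, 2 gained a call in some alternative. Of the 60 results between injured tissues 5 passed and 4 held in every alternative, while 8 others gained a call in some. The other pathway genes were recomputed as an addition chosen after seeing the data: of 60 calls 34 held and 26 were lost in some alternative.

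Same-numbered libraries were not paired, since their deviations from the group means correlated between -0.13 and 0.098. Only between heart and muscle did each library correlate best with its own number. With the replicate block in place of naming style, members called were 3 in place of 5 in heart against spleen and 2 in place of 0 in skin against muscle, while of all genes 17.2% in place of 20.3% and 5.18% in place of 0.722% were called. Under the block the call of Txnrd1 in heart was lost (adjusted p 0.0695), as were those of Prdx1 in muscle (0.365) and heart (0.318), and Msrb3 in muscle had a log2 fold change of 4.96. Under the block, 2 other pathway genes passed downward in muscle, Txn2 at -0.89 (adjusted p 0.00275) and Prdx5 at -0.62 (0.0228). Neither was called in the main fit, where their log2 fold changes had the other sign. No block was run for bone, whose columns do not all carry a number. A fit within 1 naming style was not possible for skin against bone or muscle.

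With no naming style, members called were 4 in place of 2 in skin against bone and 1 in place of 0 in skin against muscle, while the share of all genes called also went up, to 17.1% in place of 8.16% and to 4.58% in place of 0.722%. In heart against bone, 3 were called by DESeq2, 2 with no filter and 2 with the same naming style only, in place of 1, with 10.4%, 5.33% and 5.85% of all genes called in place of 6.68%. In heart against muscle, 1 was called by DESeq2 and 2 with no filter, in place of 0, with 1.33% and 1.38% of all genes called in place of 0.452%. Leaving out a library in turn gave 1 to 2 in heart against bone, 0 to 1 in heart against muscle and 0 to 0 in heart against skin, where 1 was called with all libraries. It gave 13 to 20 other pathway genes in skin against spleen, lowest without spleen replicate 1. The cause of these changes was not tested. Without spleen replicates 1 and 2, the lowest in depth, Gclc and Nfe2l2 lost their calls in skin. With the naming style as a term, that setting in effect sets skin against spleen replicate 3 alone. Fewer of all genes were called in skin there too. Counts of 7 to 25 for Msrb3 in spleen limit the precision of its folds, and Hmox1 had at most 194 counts in any library.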
